A study of Mus musculus with 4 samples.

Results

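The genes described here are those whose RNA was high in mouse gonads at E12.5 and E13.5 and lower on the day before and the day after. The TotalReads of each gene were divided by a size factor for its library, giving a scaled count. A gene was kept when its scaled count on each of the middle days, E12.5 and E13.5, was 2-fold or more over that of both outer days, E11.5 and E14.5, with 1 added to every value. It also needed at least 50 reads at E12.5 or E13.5, and names of structural and micro RNAs were left out. This left 39 genes of the 14756 with enough reads, which is 0.264% of them, out of 40999 features listed in all. The genes were chosen by their scaled counts in all 4 libraries, so the height of E12.5 and E13.5 over E11.5 and E14.5 is a description with no test.

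Gonads of XX and XY embryos from wild-type C57BL/6J mice were collected once a day between E11.5 and E14.5, with at least 6 embryos a time point. Equal numbers of both sexes went into 1 pool per day, so male and female expression cannot be told apart in any value. The mesonephros, the transient kidney beside the gonad, was kept on at E11.5 and taken off on the later days. Each pool gave 1 library, so no difference has a replicate check, and the intervals given below cover counting error only.

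In order of day, the 4 libraries held 31266481, 25593453, 31752562 and 31526303 counts. For a gene with no read the limit is 3 counts, or 0.117 CPM at E12.5, the library with the fewest reads. Nuclear ribosomal RNA took 9.06%, 1.31%, 1.03% and 40.7% of the counts, in the same order. The E12.5 and E13.5 libraries, where these genes were high, are thus also the libraries with the least ribosomal RNA, and the part of this in the result was not tested. Size factors of 1.14, 1.06, 1.33 and 0.622, in the same order, came from the 11640 genes that had 100 or more reads on every day and brought the libraries to a common scale.

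Primordial germ cells reach the mouse genital ridge as proliferating cells and still carry much of the transcription factor network of pluripotent cells, built on Pou5f1, Sox2 and Nanog. In the days that follow, XX germ cells leave this state and enter meiosis, while XY germ cells stop dividing and turn to a male programme. Several of the 39 genes are best known from embryonic stem cells or from early germ cells. In none of the 45 lists of pathway and cell type genes were 33 of the 39. Those lists held 3 to 24 genes each, so most of the 14756 genes tested were in none of them either. A further 12 lists of relatives and partners were drawn up around the members after values had been seen.

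Together the 39 genes summed to 2143, 11134, 8914 and 3226 scaled counts from E11.5 to E14.5. E12.5 was the highest of the 4 libraries for 33 of them and E13.5 for 6. The genes had a median log2 difference of 2.44 between E12.5 and E11.5, and of 1.84 between E12.5 and E14.5. The corresponding medians at E13.5 were 2.06 over E11.5 and 1.45 over E14.5. Since the tissue is a mixture, fewer cells of a type and less RNA per cell cannot be told apart in any of these values.

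**Figure D1:**
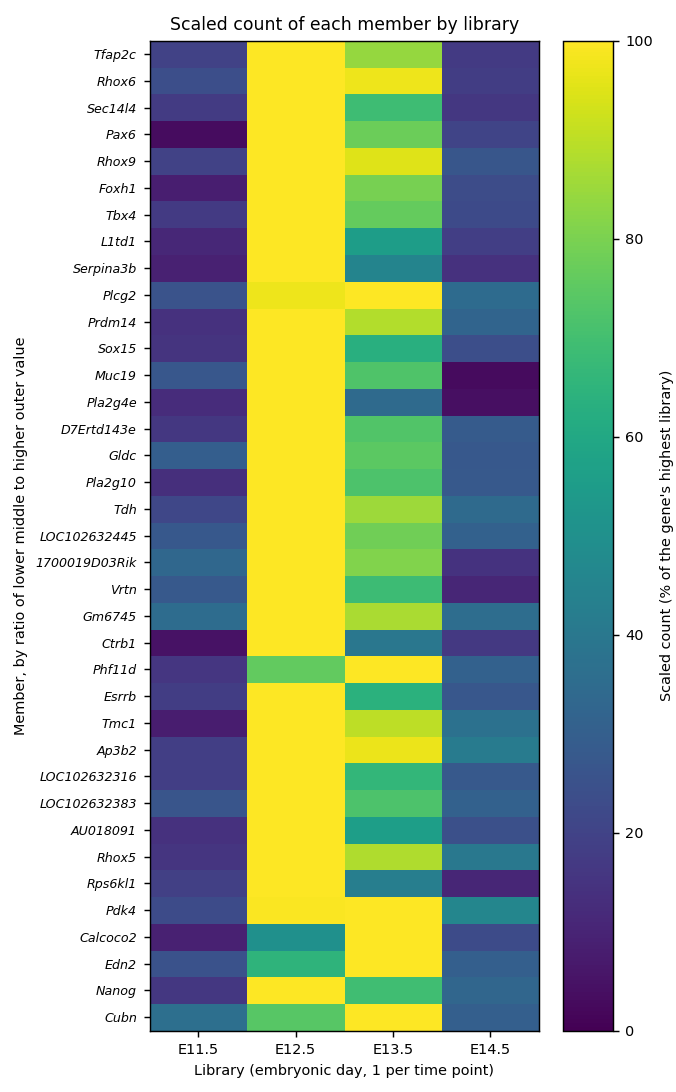
Scaled count of 37 of the 39 genes (rows) in the 4 libraries (columns, 1 per embryonic day), as a percentage of the gene's highest library. Rows run from Tfap2c, with the largest ratio of the lower middle to the higher outer value (4.19), to Cubn with the smallest (2.01), and the brightest cell is E12.5 in 31 rows.

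The ratio of the lower middle value to the higher outer value, the measure that set the threshold, ran from 2.01 to 4.19. It was under 2.5 for 23 genes and 3 or more for 7, namely Tfap2c, Rhox6, Sec14l4, Pax6, Rhox9, Foxh1 and Tbx4. Just inside the threshold were Nanog (2.08) and Cubn (2.01). Just outside it were Igfbpl1 (1.96), Trim67 (1.95) and Mreg (1.94). Igfbpl1 had scaled counts of 25.4, 158, 130 and 65.9 from E11.5 to E14.5, a course like that of the genes just inside. For 10 of the 39 genes the counting intervals of all 4 ratios lay wholly above 2-fold. All 39 had those intervals above no difference. The rule chose the genes on these same 4 ratios, so the intervals describe counting error and are no test of the genes. Counts were low for many of them, with under 100 counts in every library for 14 genes.

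Transcription factors of the pluripotent state formed one group among the 39. Nanog, a homeodomain protein needed to set up pluripotency and for germ cells to form (chr6:122706999-122714633, mm10, plus strand), had scaled counts of 72.6, 450.3, 312 and 149 from E11.5 to E14.5. Esrrb, an orphan nuclear receptor that can stand in for Nanog in embryonic stem cells (chr12:86361117-86521628, plus strand), had 140.0, 772, 494 and 210.4. In both genes E14.5 was lower than either middle day, and higher than E11.5 in scaled counts but not in the deposited TPM.

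Tfap2c, the AP-2 gamma factor that acts early in germ cell specification (chr2:172545680-172558622, plus strand), had 88.4, 444, 374 and 75.5 scaled counts. Prdm14, a PR-domain protein needed for the germ cell fate (chr1:13113425-13127809, minus strand), had 27.1, 189, 167 and 61.0. Tfap2c stood at 17.0% of its E12.5 level at E14.5, and Prdm14 at 32.3%. For Tfap2c the log2 difference of E14.5 from E11.5 was -0.23 in scaled counts, with a 95% counting interval from -0.76 to 0.29. In the deposited TPM it was lower at E14.5, at 0.459 against 1.25.

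These 4 genes are the members found in a list of 18 pluripotency genes, all tested, where members were 0.264% of all genes tested. More of the list met the fold over E11.5 than the fold over E14.5. E12.5 and E13.5 were each 2-fold or more over E11.5 for 18 of 18 genes, against 6.63% of all genes tested. They were each 2-fold or more over E14.5 for 4 of 18, which are the 4 members that the rule picked, against 0.698% of all genes tested. This contrast depends on the scaling, since 16 of the 18 met the whole rule with total counts or TPM and 8 with total counts without ribosomal RNA genes. Of the 18 genes, 16 were highest at E12.5 or E13.5, as were 36.6% of all tested genes. The median ratio of lower middle to higher outer value was 1.55 over the list and 0.862 over all genes tested.

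The other 14 genes of that list summed to 65.3% of their E12.5 level at E14.5. The 4 members summed to 26.8%, a lower share that the rule itself asks for. Pou5f1, which encodes Oct4, had scaled counts of 121, 999, 876 and 692. Sox2, its partner on DNA, had 177, 802, 704 and 387 and missed the threshold with a ratio of 1.82. Sall4, a zinc finger factor of the same network, had 540, 2317, 2036 and 1125. Dppa2 (1.89) and Prdm1 (1.84), the gene of the germ cell determinant Blimp1, came nearer to it. Dppa3, Dppa4 and Otx2 were as high or higher at E14.5 than at E12.5 in scaled counts, with Dppa4 at 51.6, 465, 368 and 765. This order depends on the scaling. Dppa3 had 1062 reads at E12.5 and 641 at E14.5, Dppa4 had 493 and 476, and Otx2 had 35 and 43. The E14.5 library was the larger, so with total counts Dppa3 and Dppa4 were lower at E14.5 and Otx2 was about level.

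**Figure D2:**
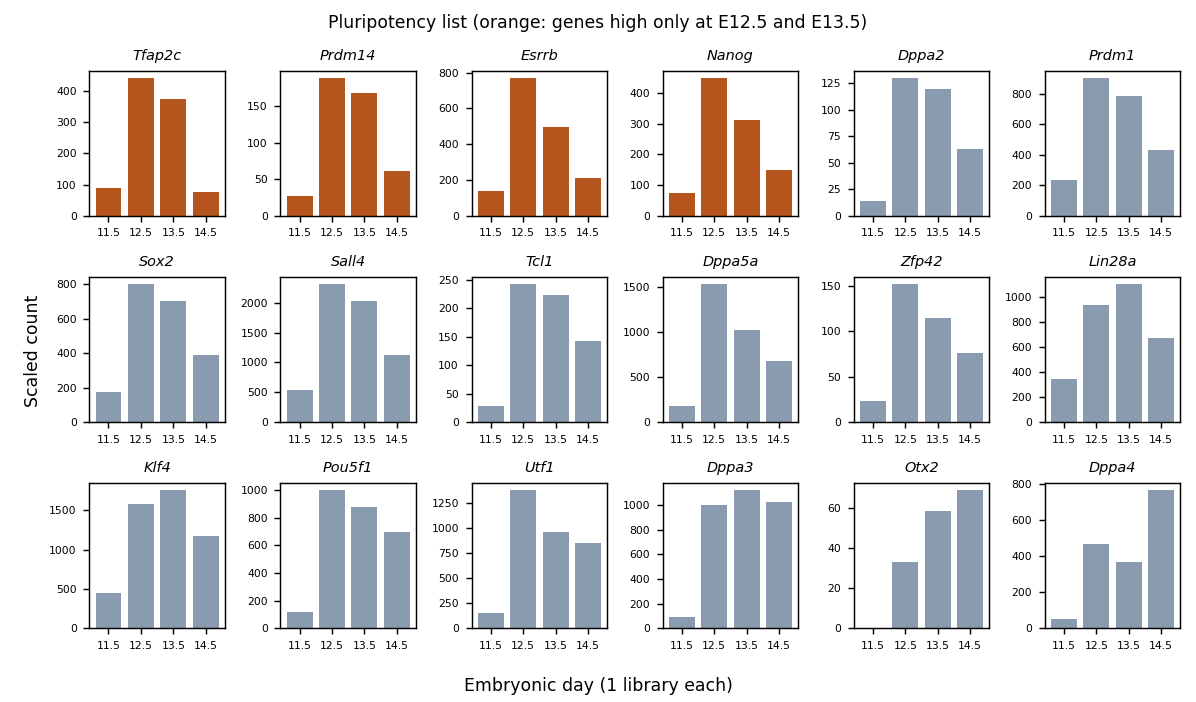
Scaled counts (bars, from 0, own axis per gene) of the 18 genes of the pluripotency list in the 4 libraries, 1 per embryonic day, ordered by the ratio of the lower middle to the higher outer value. The 4 orange genes, Tfap2c, Prdm14, Esrrb and Nanog, are the ones high only at E12.5 and E13.5, and Dppa4 and Otx2 at the end of the order are highest at E14.5.

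Windows before RefSeq transcript starts (GRCm38.p6) were listed for 23 of the 39 genes, which is 59.0% and too few for any statement over the set. In the 250 bases before each listed start, 13 motifs were searched on both strands: the TATA box TATAAA, the CCAAT box, the nuclear receptor site AGGTCA and its longer form TCAAGGTCA, the SOX site AACAAT, the GATA site read as TGATAA, the E-box CACGTG, the CRE with TGACGTCA, the OTX-type homeobox site AATCC, the FOXH1 site TGTGGATT, the AP-1 site TGAGTCA, the octamer-like TTTGCAT and the AP-2 site GCCNNNGGC. The AP-2 and octamer-like motifs were added after values of these data had been seen, and AGGTCA is part of TCAAGGTCA. The windows of Nanog and Esrrb, and of the signalling gene Plcg2, are shown, with 1 motif each in capitals, the octamer-like one in Nanog, the SOX site in Esrrb and the E-box in Plcg2. Nanog and Esrrb have a further listed start each, and the window of the first is shown. The second Esrrb window holds no AACAAT. The Nanog window shown also holds AGGTCA and AATCC, and it lies inside the span of the gene as the files give it, which begins further upstream.
Nanog promoter (chr6:122707239-122707488, plus strand, capitals mark TTTGCAT): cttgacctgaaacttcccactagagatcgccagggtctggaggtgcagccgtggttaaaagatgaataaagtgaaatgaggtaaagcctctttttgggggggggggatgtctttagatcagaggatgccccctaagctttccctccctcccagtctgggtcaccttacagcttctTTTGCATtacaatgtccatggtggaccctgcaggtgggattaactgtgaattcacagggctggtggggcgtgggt
Esrrb promoter (chr12:86360867-86361116, plus strand, capitals mark AACAAT read on the minus strand): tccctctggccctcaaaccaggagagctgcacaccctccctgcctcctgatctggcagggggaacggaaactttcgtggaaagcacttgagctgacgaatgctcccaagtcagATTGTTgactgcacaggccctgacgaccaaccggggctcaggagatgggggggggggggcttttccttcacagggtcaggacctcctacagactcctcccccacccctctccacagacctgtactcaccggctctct
Plcg2 promoter (chr8:117498025-117498274, plus strand, capitals mark CACGTG): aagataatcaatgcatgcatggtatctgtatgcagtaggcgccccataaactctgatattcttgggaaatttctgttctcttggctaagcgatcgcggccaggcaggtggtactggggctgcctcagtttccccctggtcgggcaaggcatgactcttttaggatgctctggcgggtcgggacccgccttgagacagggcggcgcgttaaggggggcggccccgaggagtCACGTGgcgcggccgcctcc
The match in capitals begins 75 bases before the start in Nanog, 137 in Esrrb and 20 in Plcg2. TTTGCAT occurred in 4.12% of the 32851 mouse windows of this length, AACAAT in 9.42% and CACGTG in 6.02%. A match is a run of letters, and no binding was measured in these libraries.

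Further transcription factors had the same course. Foxh1, the partner through which SMAD proteins reach DNA in Nodal signalling (chr15:76667829-76670309, minus strand), had 26.3, 313, 249.5 and 72.3 scaled counts from E11.5 to E14.5. Its exons share 17.3% of their length with Kifc2 on the other strand, which had 138, 142, 193 and 202. The strand setting of the counting is not stated, so reads of such an overlapping pair cannot be told apart.

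Sox15, a SOX factor expressed in embryonic stem cells, had 18.4, 121, 76.4 and 28.9 scaled counts. Tbx4, a T-box factor of the hindlimb and allantois (chr11:85886345-85916099, plus strand), had 56.0, 331, 252 and 73.9. Pax6, the master gene of eye development (chr2:105667512-105697364, plus strand), had 2.63, 78.4, 60.7 and 16.1, the first of these resting on 3 reads. Of the genes that act beside Pax6 in the eye, Rax had 1.75, 9.44, 9.74 and 1.61 scaled counts, which meets the folds with too few reads to be tested. Six3 was highest in an outer library, and Lhx2 lay between 95.3 and 101 in all 4.

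Foxh1 was the 1 member among 18 tested genes of the Nodal and activin list, against 0.264% of all genes tested. Nodal itself had 14.9, 128, 86.2 and 53.0 scaled counts and a ratio of 1.61. Tdgf1, the co-receptor also called Cripto, had a ratio of 1.66. The Nodal inhibitors stayed higher at E14.5, with ratios of 1.25 for Lefty1 and 1.06 for Lefty2. In scaled counts the list held 3 of 18 tested genes with both middle days at least 2-fold over E14.5, against 0.698% of all genes tested. It held 8 of 18 with both at least 2-fold over E11.5, against 6.63%. The count over E14.5 depends on the scaling as well.

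Relatives of these factors were chosen for comparison after values had been seen. Sox2, in the same family as Sox15, came close to the rule, as given above. Tfap2a and Tfap2b, the AP-2 genes next in abundance over all libraries, had 263 and 305 scaled counts at E11.5 and at most 16.1 on any later day. Esrra had between 227 and 268 in all 4 libraries, and Esrrg went from 193 at E11.5 to 27.3 at E14.5.

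**Figure D3:**
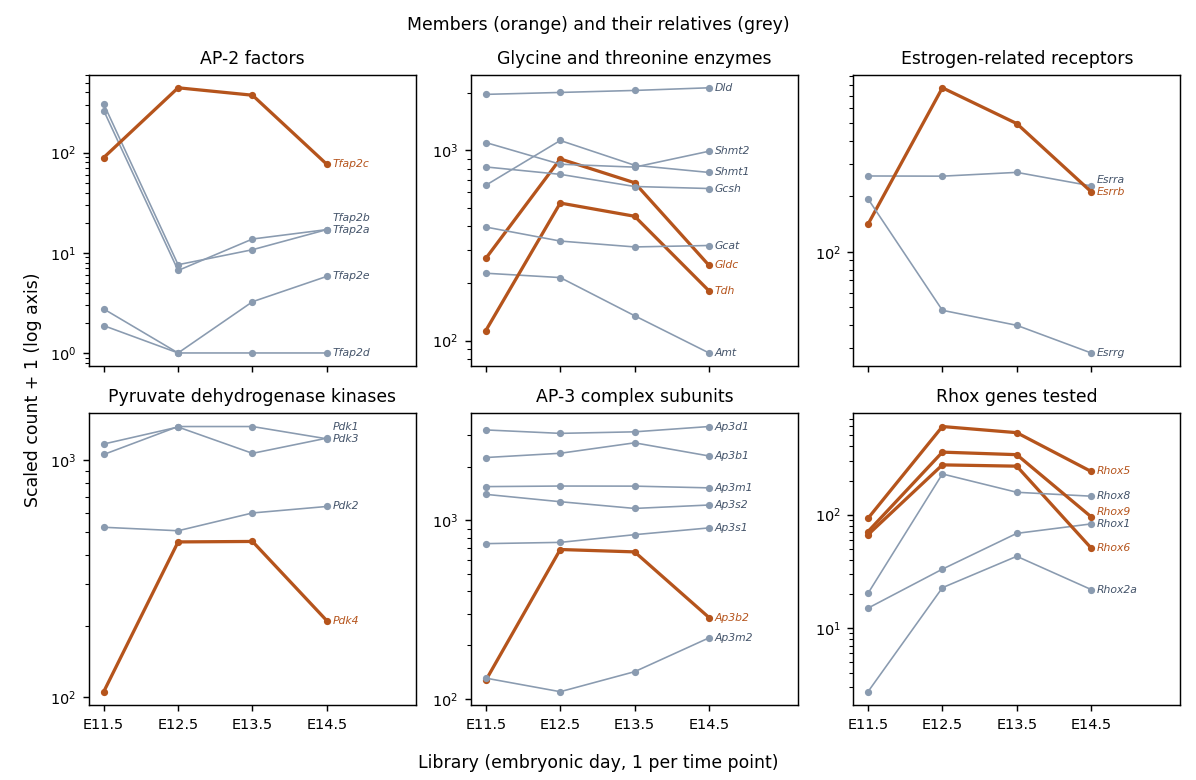
Scaled counts plus 1 (log axis) by library for members (orange) and relatives or partners that are not members (grey) in 6 gene families or pathways, 1 library per embryonic day. Tfap2c, Gldc, Tdh, Esrrb, Pdk4, Ap3b2 and 3 Rhox genes are high at E12.5 and E13.5, and none of the grey genes meets the 2-fold rule.

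The Rhox genes, a cluster of homeobox genes on the X chromosome expressed in reproductive tissues, gave 3 members. These were 3 of 6 tested Rhox genes, against 0.264% of all genes tested, in a list drawn up after values had been seen. Rhox5, the founding gene of the cluster (chrX:37754608-37808878, plus strand), had 91.9, 598, 527 and 239 scaled counts. Rhox6 (chrX:37827055-37829857, plus strand) had 65.6, 274, 267 and 49.8. Rhox9 (chrX:37899097-37901832, minus strand) had 70.0, 355, 337 and 94.8.

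Rhox5 kept more of its E12.5 level at E14.5, 40.1%, than Rhox9 with 26.7% and Rhox6 with 18.2%. The 3 genes lie close together, 18.2 kb between Rhox5 and Rhox6 and 69.2 kb between Rhox6 and Rhox9. Of 32 Rhox genes in the files, 6 had enough reads to be tested and 9 had no read in any library. The tested ones that did not qualify were Rhox8, a Sertoli cell gene with 19.3, 228, 157 and 145 scaled counts, Rhox1 and Rhox2a. Rhox2b (0.875, 26.4, 23.2 and 1.61 scaled counts), Rhox2d and Rhox4c met the folds with too few reads to be tested. The Rhox2, Rhox3 and Rhox4 genes are near-identical copies, so their reads could have been split or lost in counting.

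Per kilobase of exon, Rhox5 was the most abundant of the 39 genes, with a mean of 698 scaled counts per kb over E12.5 and E13.5. Ctrb1 followed with 382, Rhox6 with 312, Rhox9 with 309.5, L1td1 with 262 and Tdh with 259. Muc19 was the lowest at 5.19 scaled counts per kb. The X chromosome held 4 of the 39 genes, 10.3% of them against 3.78% of all genes tested, and the Rhox cluster makes up 3 of these 4. Chromosome 11 held 5 members, 12.8% against 7.75% of all genes tested, and chromosomes 2, 4 and 12 held 4 each, against 7.98%, 6.40% and 3.88%.

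RNA biology of pluripotent cells was represented by L1td1 and by a microRNA host. L1td1 encodes an RNA-binding protein derived from the LINE-1 retrotransposon (chr4:98726754-98738486, plus strand). It had 112, 989, 549.9 and 185 scaled counts from E11.5 to E14.5, the highest E12.5 value of all 39 genes. Its E13.5 value was lower than its E12.5 value by a log2 difference of -0.85, with an interval from -0.99 to -0.71.

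D7Ertd143e is a single-exon long noncoding RNA (chr7:3218784-3221015, plus strand) that spans the hairpins of miR-291a to miR-295. This miR-290 cluster is the most abundant microRNA cluster of mouse embryonic stem cells. It had 37.6, 234, 171 and 67.5 scaled counts, and 49.5 kb away AU018091 had 13.1, 92.5, 51.7 and 22.5. The mature microRNAs of this strand whose RefSeq sequence (GRCm38.p6) has the seed start AAGUGC are shown because they share it, with bases 2 to 8 in capitals. The sequence of miR-292-3p is not shown here.
mmu-miR-290a-3p: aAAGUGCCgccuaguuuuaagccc
mmu-miR-291a-3p: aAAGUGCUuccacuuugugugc
mmu-miR-291b-3p: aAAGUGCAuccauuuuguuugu
mmu-miR-294-3p: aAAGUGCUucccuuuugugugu
mmu-miR-295-3p: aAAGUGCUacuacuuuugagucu
The full seed AAGUGCU was common to miR-291a-3p, miR-294-3p and miR-295-3p, while miR-290a-3p and miR-291b-3p differed in its last base. The mature forms were barely read. The 13 of this strand with a RefSeq sequence summed to 3, 6, 7 and 4 counts from E11.5 to E14.5, and miR-292-3p had at most 1.89 scaled counts in any library. A difference between days was not detectable in the mature microRNAs at this depth. Nlrp12, on the other strand, covers the whole exon of D7Ertd143e and had at most 16.1 scaled counts in any library.

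Metabolic enzymes were also among the 39. Gldc, the decarboxylase of the mitochondrial glycine cleavage system (chr19:30098441-30175441, minus strand), had 269.5, 899, 674 and 247 scaled counts. Tdh, the threonine dehydrogenase on which mouse embryonic stem cells depend (chr14:63492347-63509092, minus strand), had 112, 527, 449 and 182. Pdk4, a kinase that switches off pyruvate dehydrogenase (chr6:5483351-5496278, minus strand), had 104, 451, 453 and 209.

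Their partners in the same reactions, a comparison chosen after values had been seen, did not meet the rule. The other glycine cleavage genes had ratios of 0.598 for Amt, 0.789 for Gcsh and 0.945 for Dld. Amt was low at E14.5 as well, with 225, 213, 134 and 85.1 scaled counts, but not at E11.5. Shmt1, which makes glycine from serine, was highest at E12.5, with 654, 1123, 832 and 763. Gcat, which takes up the product of Tdh, had 394, 332, 309.4 and 315 scaled counts. Pdk1, Pdk2 and Pdk3 had ratios of 0.862, 0.789 and 1.13.

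Genes of signalling followed. Plcg2, a phospholipase C that releases inositol trisphosphate and diacylglycerol (chr8:117498291-117635142, plus strand), had 229, 878, 899 and 315 scaled counts. Its ubiquitous relative Plcg1 had 4309, 4328, 3785 and 3314.

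Edn2, a vasoconstrictor peptide gene, was one of the 6 genes higher at E13.5, with 25.4, 65.1, 100.4 and 30.5 scaled counts. Edn1 had 186, 306, 384 and 386, with no drop at E14.5 in scaled counts. With total counts Edn1 was lower at E14.5 than at E13.5. The phospholipase A2 genes Pla2g4e and Pla2g10 had few reads, with 75.5 and 51.9 scaled counts at E12.5. Rps6kl1, a ribosomal S6 kinase-like gene, had 14, 73.6, 31.5 and 8.03.

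The rest serve transport, secretion or other roles and are mostly known from other organs. Ap3b2, the neuronal form of a subunit of the AP-3 vesicle coat (chr7:81460399-81494104, minus strand), had 126, 685, 665 and 284 scaled counts. The ubiquitous form Ap3b1 had between 2248 and 2718 in all 4 libraries. Ctrb1, a chymotrypsinogen made by the exocrine pancreas (chr8:111686510-111691010, minus strand), had 24.5, 485, 193 and 80.3.

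No gene of the pancreas list, which does not hold Ctrb1, met the rule. Of the 10 genes of the pancreas list 1 was tested, Cpa1, the most abundant, with 346, 422, 400.1 and 347 scaled counts. Pdx1, Ins1 and Prss1 had no read in any library. The list summed to 377, 436, 413 and 386 scaled counts. A list of 8 acinar genes was drawn up around Ctrb1 after values had been seen. Its 3 tested genes were all highest at E12.5 or E13.5, as were 36.6% of all genes tested, and Ctrb1 was its 1 member.

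Cubn, the cubilin receptor that kidney tubules use to take up protein (chr2:13276338-13491876, minus strand), had 81.4, 164, 222 and 67.5. Its partner receptor Lrp2, or megalin, had 1140.2, 402, 250.2 and 235, and Cubn and Lrp2 were the 2 tested genes of the kidney tubule list. That list of 9 genes summed to 1401, 662, 503 and 373 scaled counts, with Lrp2 the most abundant. Umod was listed at 0 at E12.5, E13.5 and E14.5, and Slc34a1 at E13.5 and E14.5.

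Of the lower-count genes, Calcoco2, an autophagy receptor gene, was highest at E13.5, with 9.63, 52.9, 105.6 and 24.1 scaled counts. Phf11d, a PHD finger gene, had 12.3, 58.5, 77.2 and 24.1. Tmc1, a channel gene of inner ear hair cells, had 4.38, 55.7, 50.2 and 20.9. Muc19, a gel-forming mucin gene, had 14.9, 54.8, 39.7 and 1.61, the last of these a single read. Vrtn, a gene that sets vertebral number, had 21.0, 75.5, 51.7 and 8.03, Serpina3b, a serine protease inhibitor gene, 5.25, 56.6, 25.5 and 8.03, and Sec14l4, a lipid-binding protein gene, 8.75, 50.03, 34.5 and 8.03.

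The remaining genes have no well-described product. They are 1700019D03Rik, with 57.8, 174, 141 and 25.7 scaled counts, the processed pseudogene Gm6745, whose reads may be shared with its parent gene, with 27.1, 76.5, 66.7 and 27.3, and the unnamed loci LOC102632383, LOC102632445 and LOC102632316. The E12.5 values of these loci were 72.7, 67.0 and 51.9. Protein-coding genes were 33 of the 39, or 84.6%, the same share as among all genes tested. Median exon length was 3228 bases, beside 3316.5 for all genes tested and 2947 for the 109 genes low only at E12.5 and E13.5.

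The change from E12.5 to E13.5 was not set by the rule, which asks only that both days be high. Most of the genes were lower at E13.5: 33 of 39 were below their E12.5 value, against 47.7% of all genes tested. The median log2 difference was -0.36 over the 39 genes and 0.01 over all tested. The interval lay below no difference for 20 genes (20.1% of all tested), above it for 3 (22.2% of all tested), and held no difference for 16.

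Past 2-fold, with 1 added to the scaled counts, 4 genes were lower at E13.5 and 0 were higher, against 0.434% and 1.64% of all tested. The lower ones were Pla2g4e (log2 difference -1.53, interval -2.14 to -0.94), Ctrb1 (-1.33, -1.56 to -1.11), Rps6kl1 (-1.23, -1.80 to -0.67) and Serpina3b (-1.15, -1.80 to -0.52). L1td1, at -0.85, came next. The split of 4 lower and 0 higher became 2 lower and 1 higher in the deposited TPM, and 4 lower and 1 higher with total counts. Among the genes with the most reads, Plcg2 (0.03, -0.09 to 0.16), Pdk4 (0.01, -0.17 to 0.18) and Ap3b2 (-0.04, -0.19 to 0.10) had intervals within 0.2 of no difference. The intervals above no difference were 0.54 to 1.47 for Calcoco2, 0.19 to 1.06 for Edn2 and 0.16 to 0.71 for Cubn. Nanog (-0.53) and Esrrb (-0.65) were further down at E13.5 than Prdm14 (-0.18) and Tfap2c (-0.25).

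**Figure D4:**
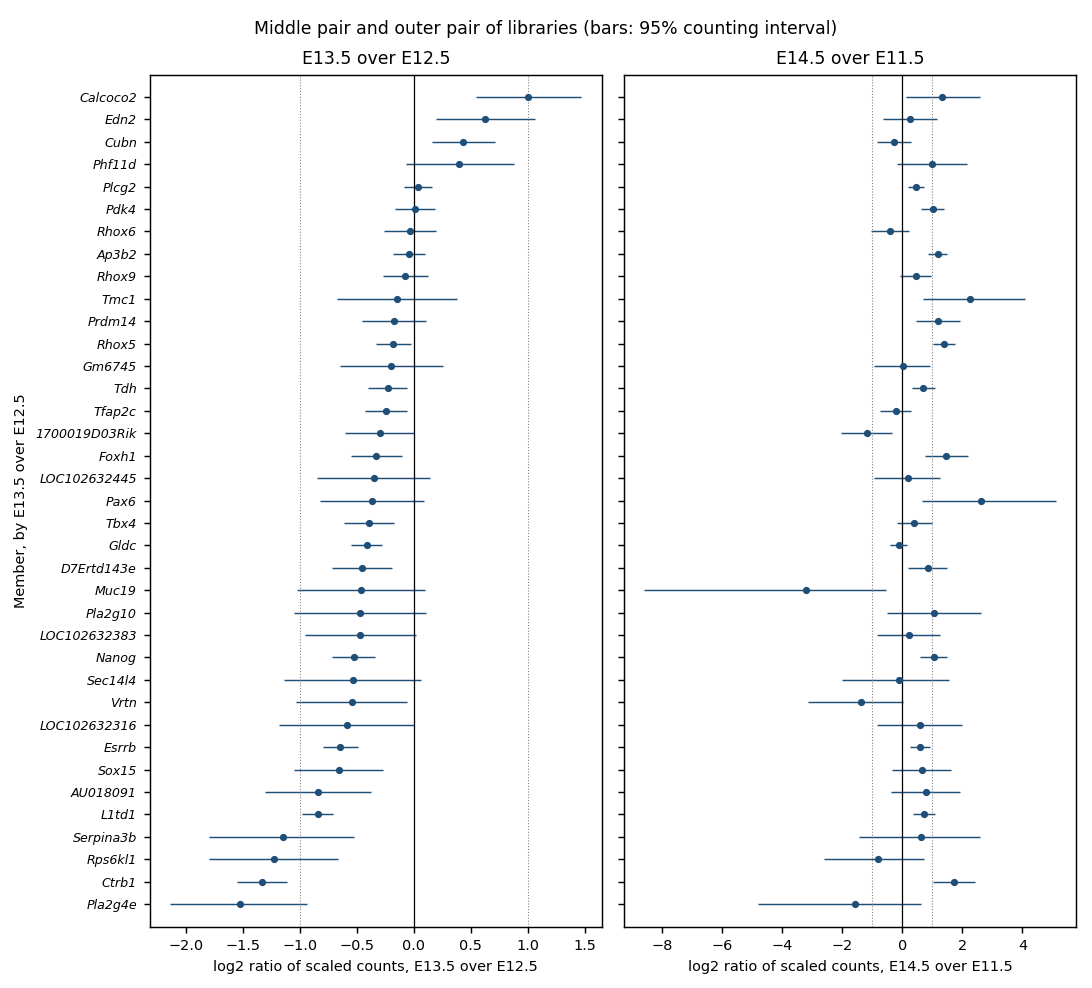
Log2 ratio of scaled counts for 37 of the 39 genes between the middle libraries (left, E13.5 over E12.5) and between the outer libraries (right, E14.5 over E11.5), with 95% counting intervals as bars and dotted lines at 2-fold. On the left 31 genes lie below 0, and on the right 27 lie above 0, a split that over all 39 genes goes from 29 above to 13 above when libraries are scaled by total counts.

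The outer libraries were not level with each other. E14.5 was higher than E11.5 for 29 of 39 genes, against 51.1% of all tested, although this split turned to 13 of 39 with scaling by total counts and to 7 of 39 in the deposited TPM. The median log2 difference was 0.59 over the 39 genes and 0.01 over all tested. Past 2-fold, 10 genes were higher at E14.5 and 4 lower, against 9.76% and 4.2% of all tested, a split that turned to 2 higher and 9 lower with total counts and to 0 higher and 8 lower in TPM. The interval lay above no difference for 17 genes (33.1% of all tested), below it for 2 (30.1% of all tested), and held it for 20.

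Pax6 was furthest up at E14.5 over E11.5 (log2 difference 2.61, interval 0.66 to 5.11), and Tmc1 (2.25, 0.68 to 4.1), Ctrb1 (1.71, 1.02 to 2.44) and Foxh1 (1.46, 0.76 to 2.18) were also among the furthest up. Furthest down were Muc19 (-3.21, -8.60 to -0.54), Pla2g4e (-1.58, -4.80 to 0.61), Vrtn (-1.39, -3.13 to 0.03), 1700019D03Rik (-1.17, -2.06 to -0.36) and Rps6kl1 (-0.80, -2.60 to 0.71). The mesonephros was in the E11.5 pool only, so tissue and day cannot be told apart in this comparison.

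Markers of the cells in these pools were set beside the genes. The germ cell list of 17 genes, 13 of them tested, held 0 of the 39. Members were 0.264% of all genes tested, so a list this short would seldom hold one. It summed to 2170.1, 11812, 15452 and 16355 scaled counts from E11.5 to E14.5. Dazl, an RNA-binding protein gene of germ cells and the most abundant of the list, had 46.4, 4300.2, 6166 and 4917. Ddx4, the germ cell RNA helicase also called Vasa, had 84.9, 1629, 2218 and 1889. Nanos2 was listed at 0 at E11.5 and E12.5, and so was Dnmt3l.

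At E14.5 the germ cell markers summed to 138% of their E12.5 level in scaled counts, or 152% without Dazl. With total counts, which moved the median of all tested genes at E14.5 by -1.06 on the log2 scale, both sums lay below their E12.5 level. The sum of the 39 genes, which the rule holds down at E14.5, was 29.0% in scaled counts. E12.5 and E13.5 were each 2-fold or more over E11.5 for 10 of the 13 tested markers, against 6.63% of all genes tested, and over E14.5 for 0 of 13, against 0.698%. Kit, the receptor that germ cells need to survive, went another way, with 1544, 2366, 2189 and 1284 scaled counts. Nanos3 (79.6 at E11.5 and 55.7 at E12.5) and Tdrd9 (27.1 and 29.3) were not low at E11.5 either. Meiosis genes, 19 of them tested, also held 0 of the 39, against 0.264% of all genes tested, a share at which 0 is the usual count. Stra8, which starts meiosis, had 0, 2.83, 322 and 437 scaled counts, and the list summed to 494% of its E12.5 level at E14.5, or 243% without Stag3, its most abundant gene. Sertoli cell markers stood at 104% and pregranulosa cell markers at 92.8% of E12.5 in scaled counts, and both were below E12.5 with total counts.

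The mesonephric and nephric list of 14 genes summed to 20714, 12189, 10885 and 8741 scaled counts, with Wt1, also a gonad gene, the most abundant. Pax2, a nephric duct gene, had 1340 scaled counts at E11.5 and 56.6, 54.7 and 57.8 on the later days, and Six2, a gene of nephron progenitors, had 879, 9.44, 12.7 and 9.64. The part of the germ cell share, the mesonephros and the ribosomal RNA in the course of the 39 genes was not tested. In all, 42 of the 45 lists of pathway and cell type genes held no member. Members were 0.264% of all genes tested, a share at which most lists of this size would hold none.

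**Figure D5:**
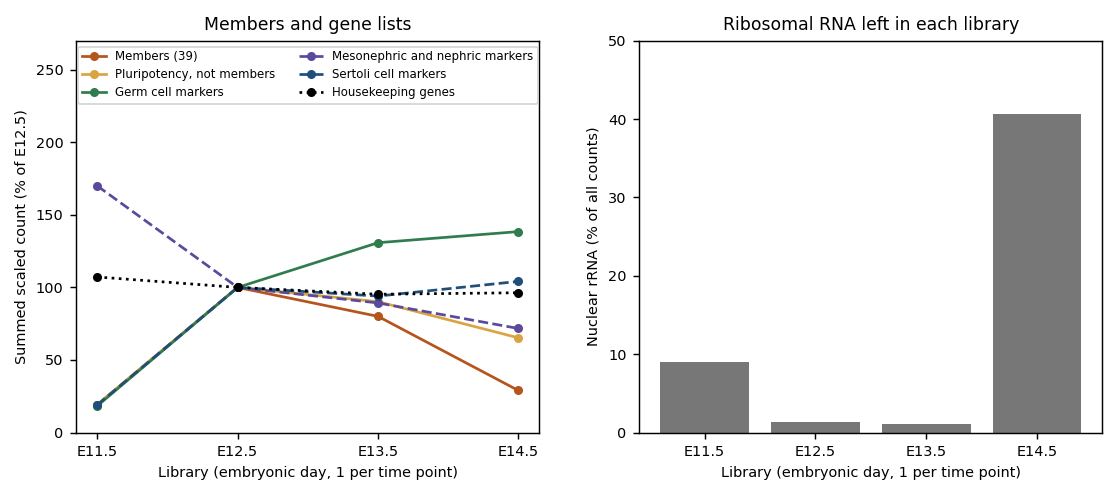
Left, summed scaled counts of the 39 genes and of 5 sets of genes by library, as a percentage of E12.5 (1 library per embryonic day). Right, nuclear ribosomal RNA as a percentage of all counts in each library. At E14.5 the 39 genes stand at 29.0% and the germ cell markers at 138% of E12.5, in a library with 40.7% ribosomal RNA. With total counts the germ cell markers lie below their E12.5 level at E14.5.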

How the data were processed

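The authors treated total RNA with probes and RNase H against ribosomal RNA, built stranded libraries with UMIs, aligned reads to mm10 with STAR, removed duplicates with UMI-tools and counted reads per gene with featureCounts. The versions, annotation release and strand setting are not given in the sources used here. The deposited counts per gene (TotalReads) were used for every result, and the TPM that the authors computed from them served as an alternative. The RPKM column was not used.

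Median-of-ratios size factors, ratios with 1 added, and exact Clopper-Pearson 95% intervals of log2 ratios without an added count were computed in Python 3.11.15 (scipy 1.17.1, pandas 2.3.3, numpy 2.4.6), with plots in matplotlib 3.10.9. TMM factors came from edgeR 4.0.16 in R 4.3.3. The calculation was tested on simulated data. With 1 library per time point no p-value is given. RNA types came from GENCODE M21, with 3 loci not in the annotations used. The rule for named genes allows any of the 39 members, since there are fewer than 60. Genes of a list are named where it is described. Some single genes are not reported here.

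The members and gene lists were chosen with earlier results of these data known. The lists of relatives and partners were chosen after values were seen. The name filter left out 3702 features, of which 115 begin with Rn or Trn but are not structural RNAs, and 0 of the 3702 met the fold rule.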

Additional observations from a re-analysis of the deposited data

How the results depend on the processing

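The 39 genes were found again under TMM factors (among 44 genes), total counts (457), total counts without ribosomal RNA genes (60) and the deposited TPM with 0.1 added (961). Size factors from genes with 1000 or more counts gave 38, without Cubn. Relative to E12.5, total counts moved the median of all tested genes by -1.06 on the log2 scale at E14.5 and by -0.19 at E11.5. TPM moved it by -1.51 at E14.5, -0.31 at E11.5 and 0.14 at E13.5, and leaving out ribosomal RNA genes by -0.23 at E14.5. A 1.5-fold threshold gave 134 genes and a 3-fold threshold 7. A minimum of 20 counts gave 64, one of 200 gave 20 and no minimum gave 229. Asking all 4 intervals to exceed 2-fold left 10. Without the E11.5 library 103 genes qualified, and without the E14.5 library 979. The other 5 alternatives gave between 26 and 39 genes.

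Under alternatives added after the data were seen, the pluripotency count of 4 became 16 with total counts, 8 without ribosomal RNA genes, 16 with TPM, 11 at 1.5-fold, 1 at 3-fold, 1 with all 4 intervals above 2-fold and 18 without the E14.5 library. No gene was past 4-fold between E13.5 and E12.5, which gave 0. Between E14.5 and E11.5 the 14 genes past 2-fold (10 higher at E14.5, 4 lower) became 8 with TPM (0 higher, 8 lower), 8 with 10 added to the scaled counts and 3 at 4-fold. Of 50 values computed under alternatives, 28 stayed within 1.5 times and 22 did not. This tally compares totals and not directions. The genes past 2-fold between E14.5 and E11.5 under total counts, 11 in all, are among the 28. Their split still turned to 2 higher and 9 lower. The cause of these shifts was not tested beyond the construction of each alternative. No paired analysis was possible because each time point has 1 library. A member with few reads has a wide interval, and 14 members had under 100 counts in every library.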
